A study of Mus musculus with 2 samples.

Results

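The cells described here are capillary blood endothelial cells of the mouse heart, 178 of the 9369 barcodes (1.9%, 95% exact binomial interval 1.63 to 2.2%) in 1 pooled single-cell library. They were chosen by their UMIs (unique molecular identifiers, which tag captured transcripts one by one). A member had at least 3 UMIs summed over Pecam1, Cdh5 and Egfl7, which mark endothelium, and at least 1 UMI of Gpihbp1. It had none of Npr3 (endocardium), Pdgfra (fibroblasts) or Csf1r (macrophages). At most 1 of the lymphatic genes Prox1, Mmrn1, Reln, Flt4, Ccl21a and Lyve1 was present in it. The library held sorted viable heart cells other than cardiomyocytes from 4 Nts knockout (KO) mice and 3 control mice, 6 to 8 weeks old, 7 days after transverse aortic constriction (TAC), an operation that narrows the aorta and raises the pressure against which the heart pumps. The genotype entry of the labels reads WT for the whole pool, against the KO mice that its title counts, and how the Nts allele was removed is not given in the sources used here. Every mouse had TAC, the cells of all mice were mixed, and no cell could be assigned to its mouse, so each value is an average over both genotypes in unknown proportion. No sham-operated heart was used here. The series has 1 such library, so there is no replicate and no test of significance.

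Capillary endothelium is the wall across which the heart takes up its fuel, mostly fatty acids. GPIHBP1 holds lipoprotein lipase on the inner surface of the capillary, the lipase frees fatty acids from lipoproteins, CD36 takes them up and FABP4 carries them through the cell. Endocardial cells line the chambers, and lymphatic endothelial cells drain tissue fluid. Both are endothelial as well and serve below as the nearest comparisons.

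The 178 capillary cells held 881710 UMIs, with 2569 to 14672 per cell, a median of 4397.5 and a median of 2033.5 detected genes. They were set against 144 endocardial cells (Npr3 at 1 UMI or more and at most 2 lymphatic genes; median 5462.5 UMIs), 67 lymphatic cells (at least 3 of the 6 lymphatic genes; median 5008 UMIs) and the rest of the pool, 8749 barcodes with fewer than 3 UMIs over Pecam1, Cdh5 and Egfl7 (median 6751 UMIs). A further 105 endothelial cells met every condition except that Gpihbp1 was at 0. The median mitochondrial share of UMIs was 1.37% in capillary cells, 0.877% in endocardial cells, 0.695% in lymphatic cells and 0.723% in the rest of the pool, and its part in the results was not tested. No barcode occurred more than once. Levels are CPM, counts per 1000000 UMIs summed over all cells of a class. The intervals are 95% exact ones, Poisson for levels and binomial for ratios and shares, and cover counting error only.

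The members' defining genes had the following UMIs per cell, given as a description since the rule used them. Gpihbp1 ranged from 1 to 46 UMIs, with a median of 8. The sum of Pecam1, Cdh5 and Egfl7 ranged from 4 to 65, with a median of 13. At the border of the rule, the 23 members with 1 Gpihbp1 UMI had Fabp4 at 22726 CPM and the 155 members with 2 or more at 34726 CPM. The 105 cells just outside, with Gpihbp1 at 0, had Fabp4 at 6859 CPM, Rbp7 at 114 CPM and Tcf15 at 106 CPM. The 4 cells outside only through 1 Npr3 UMI had Fabp4 at 15646 CPM. The 39 cells outside through Pdgfra or Csf1r had Fabp4 at 12327 CPM, and Dcn, a fibroblast proteoglycan, at 7755 CPM.

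The other markers of capillary endothelium were present, and all but Cldn5 were highest in these cells. Fabp4, the fatty acid chaperone, was at 33005 CPM in capillary cells, against 2402 CPM in endocardial cells, 549.9 CPM in lymphatic cells and 56.3 CPM in the rest of the pool. It was found in 178 of 178 members, with 5 to 616 UMIs per cell and a median of 136. Rbp7, a retinoid-binding protein, was at 866 CPM in capillary cells, 23 CPM in endocardial cells, 149 CPM in lymphatic cells and 0.608 CPM in the rest. Both were highest in capillary cells, and Rbp7, unlike Fabp4, was higher in lymphatic than in endocardial cells. Tcf15, a transcription factor, was at 535 CPM in capillary cells, 12.5 CPM in endocardial cells, 2.82 CPM in lymphatic cells and 2.62 CPM in the rest. Sox18, an endothelial transcription factor, was at 556 CPM in capillary cells, 109 CPM in endocardial cells, 372 CPM in lymphatic cells and 0.6995 CPM in the rest. Cldn5, the claudin of endothelial tight junctions, was at 400.4 CPM in capillary cells and 60.6 CPM in endocardial cells, but at 789.7 CPM in lymphatic cells.

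**Figure D1:**
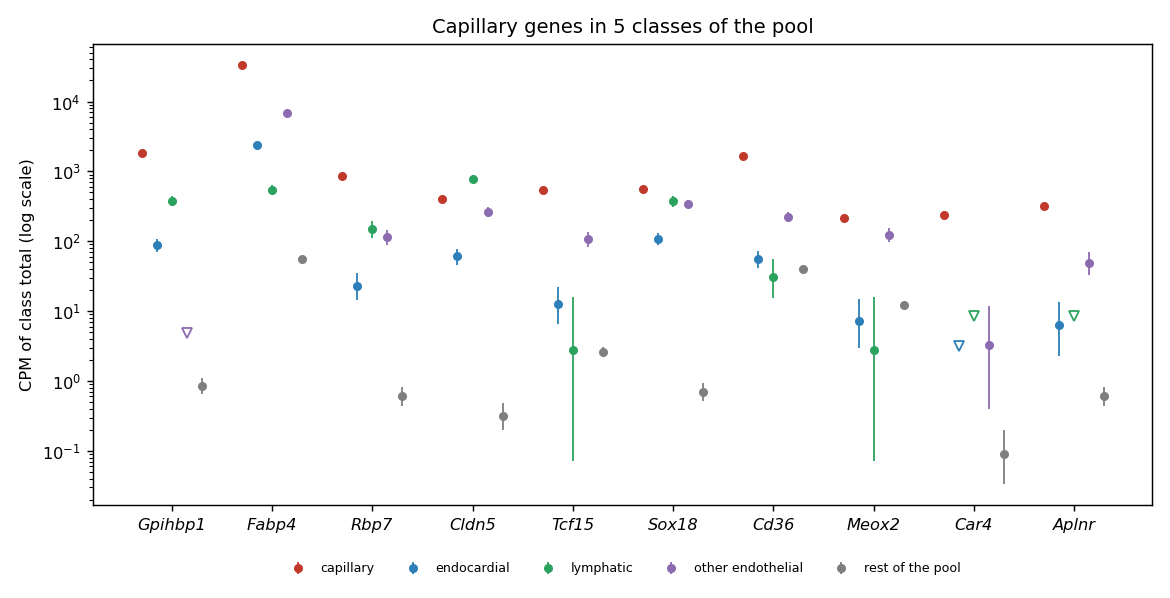
CPM of 10 genes (log axis) in 5 classes of cells; bars are 95% Poisson intervals, and an open triangle marks a class without a UMI, drawn at 3 counts. Gpihbp1 is part of the rule. Fabp4 is at 33005 CPM in capillary cells and 2402 CPM in endocardial cells, and Cldn5 is the gene that is highest in the lymphatic class.

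Shares of cells with a UMI and markers of other cell types were measured in the same classes. Free RNA itself was not measured. After each cell was thinned at random to 2500 UMIs, 100.0% of capillary cells and 8.68% of the rest of the pool had a Fabp4 UMI. Fabp4 was then in 48.6% of endocardial and 38.8% of lymphatic cells. The corresponding share for Cd36 was 86.5% in capillary cells, 9.03% in endocardial cells, 4.48% in lymphatic cells and 8.08% in the rest. The 9 fibroblast markers apart from the rule's own summed to 911 CPM in capillary cells, 5310 CPM in endocardial cells, 1196 CPM in lymphatic cells and 40143 CPM in the rest. The 9 macrophage and monocyte markers summed to 445, 367, 587 and 10172 CPM in these classes. The fibroblast marker sum was thus higher in the endocardial class than in the capillary class, and its source was not tested. The part of fibroblast RNA in the differences between these classes was not tested beyond leaving out cells. An alternative added after seeing the data left out 20 of 178 capillary, 61 of 144 endocardial and 8 of 67 lymphatic cells with several markers of another cell type. Scrublet called 4 capillary cells doublets, which were kept.

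Promoter sequences are shown for 3 genes that were higher in capillary than in endocardial cells, the surface enzyme Car4, the retinoid carrier Rbp7 and the transcription factor Meox2; they run from 250 bases before to 50 bases after the annotated start, from RefSeq on GRCm38.p6, 5′ to 3′ on the gene's strand. Capitals mark matches to TATAAA, or to CCGGAA, the core letters of ETS factor sites, on either strand.
Car4, chr11:84957504-84957803, plus strand: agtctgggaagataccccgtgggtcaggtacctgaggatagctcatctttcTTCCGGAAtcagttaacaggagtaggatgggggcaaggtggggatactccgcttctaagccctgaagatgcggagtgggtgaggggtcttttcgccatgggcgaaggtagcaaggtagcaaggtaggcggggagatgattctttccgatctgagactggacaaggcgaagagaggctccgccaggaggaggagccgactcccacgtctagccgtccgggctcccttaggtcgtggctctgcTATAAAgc
Rbp7, chr4:149454919-149455218, minus strand: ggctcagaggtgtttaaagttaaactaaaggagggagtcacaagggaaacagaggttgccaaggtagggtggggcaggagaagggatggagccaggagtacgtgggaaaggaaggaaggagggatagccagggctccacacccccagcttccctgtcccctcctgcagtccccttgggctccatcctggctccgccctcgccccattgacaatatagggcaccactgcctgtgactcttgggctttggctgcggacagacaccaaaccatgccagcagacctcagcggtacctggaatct
Meox2, chr12:37108290-37108589, plus strand: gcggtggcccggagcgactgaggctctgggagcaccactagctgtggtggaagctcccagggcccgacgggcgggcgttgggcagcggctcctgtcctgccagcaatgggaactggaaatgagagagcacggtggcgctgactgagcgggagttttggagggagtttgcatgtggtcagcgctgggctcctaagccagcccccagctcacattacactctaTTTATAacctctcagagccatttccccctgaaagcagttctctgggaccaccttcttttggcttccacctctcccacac
In the Car4 promoter the 2 CCGGAA matches lie on opposite strands and overlap, starting at -199 and -197 from the start, and TATAAA starts at 43 after it. In Meox2 a TATAAA on the minus strand starts at -29, and Rbp7 held neither motif. CCGGAA occurred in 14.9% of all 32851 mouse promoter windows of this length. Among the 852 windows of 621 genes at least 2-fold higher in capillary than in endocardial cells, it occurred in 16.8%. TATAAA occurred in 13.6% of all and 8.8% of those windows. Other motifs searched were ACAATG of SOX factors (12.6% of all and 7.39% of those windows) and the homeobox TAATTA (5.29 and 1.88%). The E-box CAGCTG was at 16.3 and 19.1%. A match describes letters only.

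Against endocardium, 14 of 24 measured lipid handling genes and 8 of 13 solute transport genes were at least 2-fold higher in capillary cells. So were 14 of 23 cell cycle genes and 9 of 19 sprouting genes. Of the genes higher in endocardium, Nrg1 had no UMI in capillary cells and Edn1 had 15 UMIs, while Plvap had 280 UMIs. Of 8592 genes with at least 20 UMIs over both classes, 810 (9.43%) were at least 2-fold higher in capillary cells and 1048 (12.2%) at least 2-fold lower. With an interval that also excluded 1, the counts were 736 (8.57%) and 961 (11.2%). The median log2 ratio over all these genes was -0.04. The counts for gene groups below use the same fold, and their genes and lists were picked with results of these data known.

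The lipid group stood at 14 of 24 measured genes higher and 4 lower, with a median log2 ratio of 1.62. Cd36, the fatty acid translocase, was at 1650 CPM in capillary cells and 55.4 CPM in endocardial cells, 29.8-fold higher (interval 22.7 to 39.98). Per cell it ranged from 0 to 66.2 UMIs per 10000 with a median of 15.3 in capillary cells, against 0 to 20.4 with a median of 0 in endocardial cells, so the ranges overlapped. Fabp4 was 13.7-fold higher (13.2 to 14.3). The retinoid carrier stood further apart than the fatty acid carrier: Rbp7 was 37.7-fold higher (24.7 to 60.5). Meox2 and Tcf15, partner transcription factors known to drive fatty acid transport genes in heart endothelium, were 29.5-fold (14 to 74.3) and 42.7-fold (24.2 to 83.2) higher. Both these factors and genes of uptake were thus higher as class sums. Whether they occurred together within cells was not tested. Aqp7, a glycerol channel, was at 158 CPM in capillary and 4.18 CPM in endocardial cells. Lpl, the lipase itself, was at 264 CPM in capillary and 54.3 CPM in endocardial cells, 4.86-fold higher (3.59 to 6.7). Scarb1, the receptor for high-density lipoprotein, was 7.11-fold higher (4.52 to 11.7). Pparg, a nuclear receptor of lipid metabolism, had 51 UMIs in capillary cells and 1 UMI in endocardial cells, a ratio of 55.4 (9.5 to 2229).

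Members of the lipid group on the other side were Apoe, Acer2, Abca1 and Vegfb. Apoe, an apolipoprotein, was at 269.9 CPM in capillary cells and 4869 CPM in endocardial cells, 18-fold lower (15.8 to 20.6). Acer2, a ceramidase, was at 20.4 CPM in capillary and 297 CPM in endocardial cells, 14.5-fold lower (9.03 to 24.9). Apoe is also abundant in the rest of the pool, at 4436 CPM. Fabp5, the other fatty acid binding protein with many UMIs, was at 3028 CPM in capillary and 4527 CPM in endocardial cells, within 2-fold. So of these fatty acid binding proteins Fabp4 was far higher in capillary cells, and Fabp5 had a ratio of 0.669 (0.637 to 0.702).

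**Figure D2:**
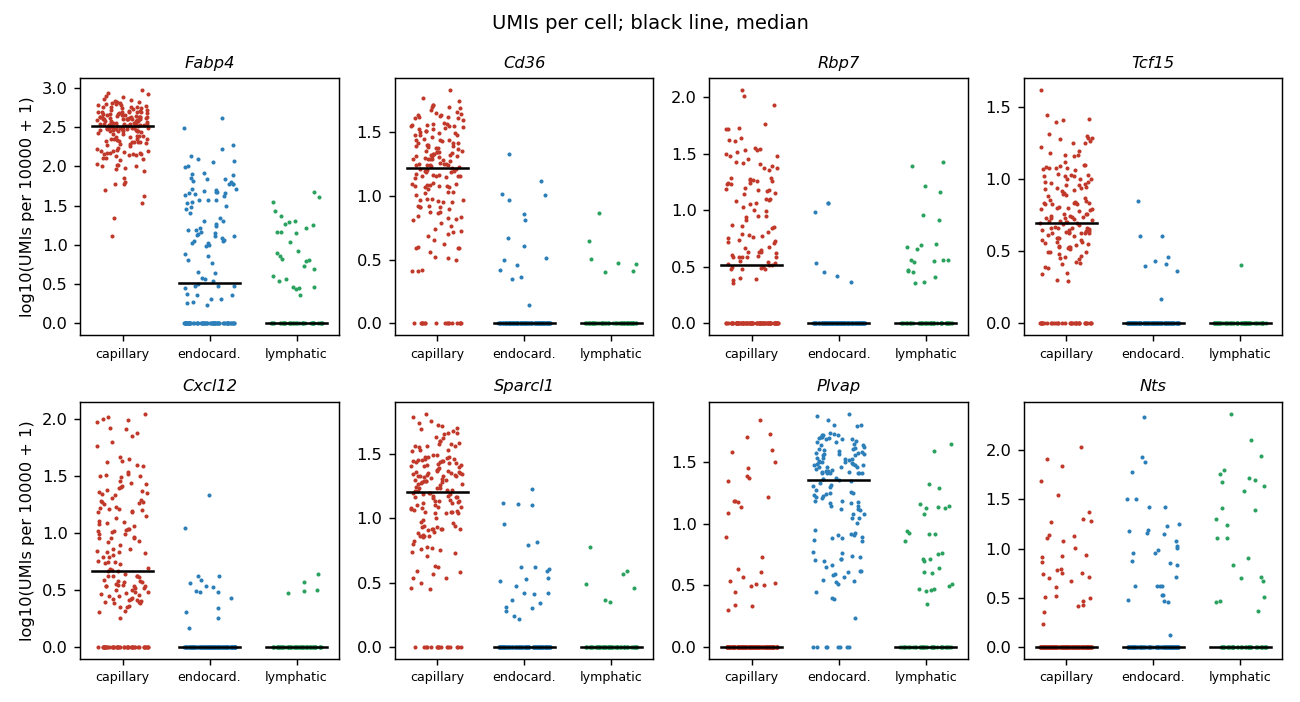
UMIs per 10000 of a cell, as log10 of the value plus 1, for 8 genes in each capillary, endocardial and lymphatic cell, with the class median as a black line. Fabp4 has a median of 325 per 10000 in capillary cells and 2.3 in endocardial cells, while Plvap and Nts lie at 0 in most capillary cells and reach 67.9 and 107 in a few.

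The transport and enzyme group had 8 of 13 measured genes higher and 1 lower, with a median log2 ratio of 1.51. Car4, a carbonic anhydrase anchored on the capillary surface, had 209 UMIs in 65 capillary cells and none in endocardial cells, at least 75.6-fold higher when endocardial cells are set to 3 counts over the class. Timp4, a metalloproteinase inhibitor, was at 198 CPM in capillary and 4.18 CPM in endocardial cells, 47.5-fold higher (18.2 to 176). Abcb1a, the efflux pump P-glycoprotein, was at 53.3 CPM in capillary and 9.4 CPM in endocardial cells, 5.67-fold higher (2.75 to 13.2). Slc28a2, a nucleoside transporter, was 15.2-fold higher (6.21 to 48.3). Aqp1, the water channel, was within 2-fold, at 454 CPM in capillary and 251 CPM in endocardial cells.

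Among the genes ranked highest over the whole table were several without a list. C1qtnf9, a secreted C1q and TNF related protein, had 190 UMIs in capillary and 2 UMIs in endocardial cells, a ratio of 103 (28.2 to 858). Btnl9, a butyrophilin-like gene, was 51.8-fold higher (19.9 to 192). Gm12002, for which the annotation gives no further name, had 106 UMIs in capillary cells and none in endocardial cells, at least 38.4-fold higher. Rgs5, a marker of pericytes, had 82 UMIs in capillary cells and none in endocardial cells. Those 82 lay in 9 capillary cells, with up to 28 in a cell, and the other 9 mural markers had 8 UMIs in all in these 9 cells. With the cells carrying several markers of another cell type left out, 29 Rgs5 UMIs remained in capillary cells. The part of pericyte RNA in the Rgs5 value was not tested beyond that.

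**Figure D3:**
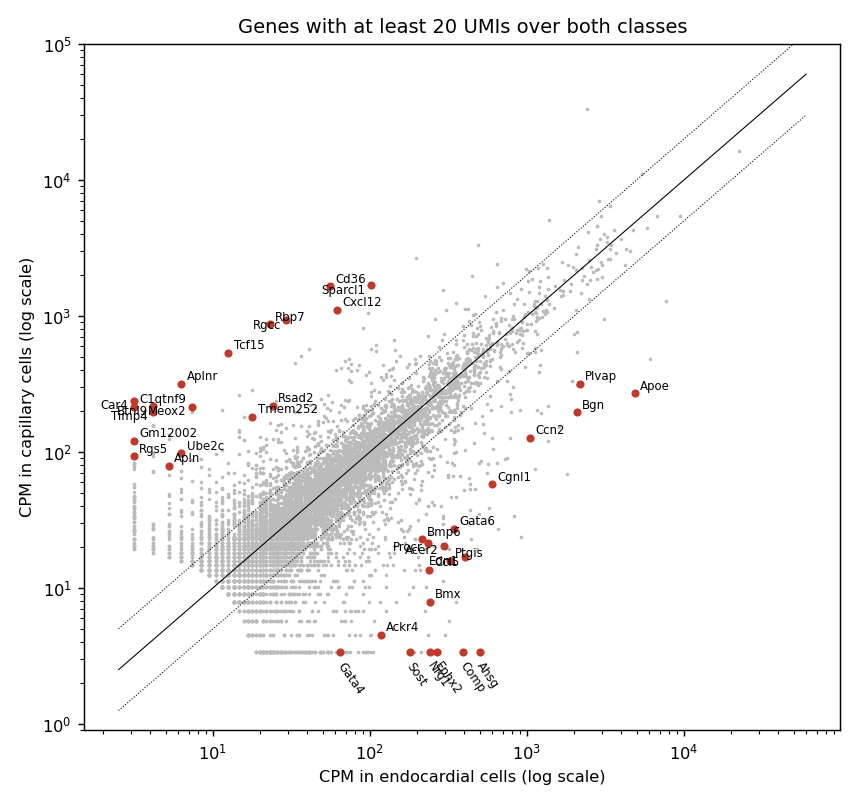
CPM of each gene in capillary cells (vertical) against endocardial cells (horizontal), both on log axes, for genes with at least 20 UMIs and without the genes of the rules; a class below 3 counts is drawn at 3. The line is equality, dotted lines are 2-fold, and red points are named genes, with Cd36, Sparcl1 and Cxcl12 far above the line and Apoe, Bgn and Plvap far below it.

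Of the endothelial transcription factors, 10 of 30 were higher and 3 lower, with a median log2 ratio of 0.36. Beside Meox2 and Tcf15, Sox17 was at 284 CPM in capillary and 17.8 CPM in endocardial cells, 16-fold higher (9.77 to 27.8). Meox1, a relative of Meox2, was 17.6-fold higher (9.58 to 35.8). Sox18 was 5.11-fold higher (4.13 to 6.38). The shear-responsive factors Klf2 and Klf4 lay within 2-fold, at 4022 and 1220 CPM in capillary cells and 3085 and 962 CPM in endocardial cells. The heart factors Gata4 and Gata6 were on the other side. Gata6 was at 27.2 CPM in capillary cells and 344 CPM in endocardial cells, 12.6-fold lower (8.34 to 19.99), and Gata4 had 2 UMIs in capillary cells and 62 UMIs in endocardial cells.

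Receptors and ligands of vessel growth had 11 of 26 measured genes higher and 3 lower, with a median log2 ratio of 0.52. Aplnr, the apelin receptor, was at 318 CPM in capillary and 6.27 CPM in endocardial cells, 50.7-fold higher (23 to 139). Its ligand gene Apln, known as a tip cell gene, was at 79.4 and 5.22 CPM in capillary and endocardial cells, 15.2-fold higher (6.21 to 48.3), and was found in 32 capillary cells. Kdr, the main receptor for VEGF-A, was 3.57-fold higher (2.9 to 4.44), at 433 CPM in capillary and 121 CPM in endocardial cells. Flt1, the decoy-like VEGF receptor, did not differ by 2-fold, at 372 CPM in capillary and 376 CPM in endocardial cells. Eng, a co-receptor of the TGF-beta family, was lower, at 539 CPM in capillary and 2088 CPM in endocardial cells. The tip cell and sprouting list had 9 of 19 measured genes higher and 2 lower, and 3 more of its genes had too few UMIs. Rgcc, a regulator of the cell cycle, led the list at 928 CPM in capillary and 29.3 CPM in endocardial cells, 31.7-fold higher (21.8 to 48). Angpt2 and Esm1, picked after their values were seen, are also known from tip cells and had very few UMIs in capillary cells.

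In the Notch list 5 of 12 genes were higher and none lower. Nrarp, a Notch target and regulator, was at 129 CPM in capillary and 19.9 CPM in endocardial cells, 6.51-fold higher (3.99 to 11.2), and the ligands Jag2 and Dll4 were 14.1-fold (4.49 to 71.4) and 2.21-fold (1.38 to 3.61) higher. Hey1, another target, lay within 2-fold at 73.7 CPM in capillary and 89.9 CPM in endocardial cells. Junction and barrier genes had 8 of 17 higher and 3 lower. Jam2 and Esam, adhesion molecules of the junction, were 2.66-fold (2.17 to 3.29) and 2.17-fold (1.91 to 2.46) higher. Cldn5 was 6.61-fold higher (4.99 to 8.88). Cgnl1, a junction scaffold, was lower, at 57.8 CPM in capillary and 599.7 CPM in endocardial cells.

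Basement membrane genes had 8 of 21 higher and 4 lower. Sparcl1, a matricellular protein, was at 1684 CPM in capillary and 101 CPM in endocardial cells, 16.6-fold higher (13.5 to 20.6). The type IV collagen genes Col4a1 and Col4a2 were 3.53-fold (3.12 to 3.997) and 4.73-fold (3.92 to 5.74) higher, and Col4a1 was at 1250 CPM in capillary and 354 CPM in endocardial cells. Of the caveolar genes, Cav1, which forms the caveolar coat, was at 1743 CPM in capillary and 706 CPM in endocardial cells, 2.47-fold higher (2.25 to 2.71). Plvap, which forms the diaphragms of fenestrae and caveolae, went the other way, at 318 CPM in capillary and 2170 CPM in endocardial cells, 6.83-fold lower (6.03 to 7.77).

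The venous list leaned most to endocardium (2 of 12 genes higher, 7 lower, median log2 ratio -1.17). TGF-beta and BMP (3 of 19 higher, 9 lower, -0.97) and vasoactive genes (4 of 21 higher, 10 lower, -0.82) followed. Chemokines and decoys (2 of 12 higher, 5 lower, -0.63) and coagulation (0 of 11 higher, 5 lower, -0.55) leaned the same way. Smaller negative medians were those of the arterial (6 of 16 higher, 6 lower, -0.42) and neurotensin lists (0 of 5 higher, 2 lower, -0.41). The immediate early list was at -0.09 (1 of 18 higher, 1 lower). Nrg1, a neuregulin that endocardium sends to heart muscle, had no UMI in capillary cells and 233 UMIs in endocardial cells, at least 71.5-fold lower. Edn1, the vasoconstrictor endothelin, was at 17 CPM in capillary and 401 CPM in endocardial cells, 23.6-fold lower (14.1 to 42.6), with UMIs in 6 capillary cells. Ptgis, prostacyclin synthase, was at 15.9 CPM in capillary and 323 CPM in endocardial cells, 20.3-fold lower (11.9 to 37.6). Procr, the protein C receptor, was 10.8-fold lower (6.76 to 18.3). Bmp6, a BMP ligand, was at 22.7 CPM in capillary and 214 CPM in endocardial cells, 9.44-fold lower (5.96 to 15.8). Id1, a BMP target, was higher instead, at 1557 CPM in capillary and 292 CPM in endocardial cells, 5.34-fold (4.69 to 6.1). Over the whole table the lowest in capillary cells were Ahsg and Comp, each with no UMI there, against 479 UMIs and 374 UMIs in endocardial cells. Bgn, Ptgis, Apoe and Ccn2 are also abundant in the rest of the pool, at 3114, 412, 4436 and 816 CPM, and the part of fibroblast RNA in their difference was not tested beyond leaving out cells.

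The endocardial comparison was recomputed without the cells that carried markers of other types, which left 158 capillary and 83 endocardial cells. It then had 787 genes higher and 820 lower, and 15 of 42 named genes moved by more than 1.5-fold without any change of side. Cldn5, with 329 UMIs in capillary cells and 1 UMI in endocardial cells left, moved to a log2 ratio of 7.70 against 2.72 with all cells. The values of Rsad2 (5.07 against 3.18), Rgcc (6.04 against 4.99), Btnl9 (6.70 against 5.70), Sparcl1 (4.89 against 4.05), Cxcl12 (4.81 against 4.17) and Tmem252 (4.03 against 3.35) became larger. Those of Meox2 (3.97 against 4.88), Tcf15 (4.74 against 5.42), Timp4 (4.67 against 5.57), Apln (2.95 against 3.93) and Ccl5 (-1.86 against -4.12) became smaller in size. Car4, Gm12002 and Rgs5 still had no endocardial UMI, and their lower bounds became smaller, at 5.32, 4.21 and 2.61. Their UMIs in capillary cells were then 189, 88 and 29, against 209, 106 and 82 with all cells. With Npr3 at 2 UMIs or more in the endocardial class, Timp4 was at 7.36, Meox2 at 6.48, Tcf15 at 6.79, Ube2c at 6.34, C1qtnf9 at 7.48 and Tmem252 at 4.91, with 1 to 5 endocardial UMIs each, and Ccl5 was at -2.77. With Gpihbp1 at 2 UMIs or more, Ccn2 moved to -4.68 against -3.05, Ptgis to -5.61 against -4.35 and Plvap to -3.38 against -2.77. With no lymphatic gene allowed, Edn1 moved to -5.92 against -4.56.

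Against lymphatic endothelium, 12 of 23 lipid, 8 of 16 junction, 9 of 14 leukocyte adhesion and 17 of 21 cell cycle genes were at least 2-fold higher in capillary cells, while Pdpn, Fgl2 and the soluble guanylate cyclase genes were far higher in lymphatic cells. Of 7255 genes with at least 20 UMIs, 897 (12.4%) were at least 2-fold higher in capillary cells and 743 (10.2%) lower. With an interval that excluded 1 the counts were 692 (9.54%) and 661 (9.11%), and the median log2 ratio was -0.04. The lymphatic class has 67 cells and 354586 UMIs, so genes with few lymphatic UMIs have wide intervals.

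In the lipid group 12 of 23 genes were higher and 3 lower, with a median log2 ratio of 1.08. Fabp4 was 60.02-fold higher (52.1 to 69.5). Cd36 was at 1650 CPM in capillary and 31 CPM in lymphatic cells, 53.2-fold higher (29.6 to 107). Tcf15 had 472 UMIs in capillary cells and 1 UMI in lymphatic cells, a ratio of 189.8 (33.9 to 7513). Fabp5, which was not 2-fold apart from endocardium, was 5.93-fold higher than in lymphatic cells (5.1 to 6.93), at 3028 CPM in capillary and 510.5 CPM in lymphatic cells. Pparg and Cyp4b1, high against endocardium, lay within 2-fold of lymphatic cells, at 57.8 and 74.9 CPM in capillary cells and 67.7 and 62 CPM in lymphatic cells. Rbp7 was 5.8-fold higher (4.39 to 7.81).

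Kitl, the stem cell factor, was at 610.2 CPM in capillary and 5.64 CPM in lymphatic cells, a ratio of 108 (29.8 to 896). Rgcc had 818 UMIs in capillary cells and 1 UMI in lymphatic cells, a ratio of 329 (58.9 to 13009). Aplnr and Sox17 had no lymphatic UMI and were at least 37.5-fold and at least 33.5-fold higher in capillary cells. Cxcl12, the chemokine that binds Cxcr4, was at 1109 CPM in capillary and 14.1 CPM in lymphatic cells, 78.7-fold higher (33.6 to 243). Igfbp7, an insulin-like growth factor binding protein, was 14.8-fold higher (12.3 to 17.8), at 5037 CPM in capillary and 341 CPM in lymphatic cells. Ly6a and Ly6c1, surface proteins of the Ly6 family whose paralogs could share reads, were 53.7-fold (35.4 to 85.8) and 50.1-fold (32 to 83.4) higher.

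Leukocyte adhesion genes were higher in 9 of 14 and lower in 2, with a median log2 ratio of 1.16. Jam2 had 319 UMIs in capillary cells and 1 UMI in lymphatic cells. Sele, the inducible E-selectin, was at 144 CPM in capillary and 14.1 CPM in lymphatic cells, 10.2-fold higher (4.26 to 32), and all its 127 capillary UMIs lay in 17 cells, up to 38 in a cell. Of the VEGF receptors, Flt1 was 18.8-fold higher (9.04 to 47.2), at 372 CPM in capillary and 19.7 CPM in lymphatic cells, and Kdr lay within 2-fold at 433 CPM in capillary and 406 CPM in lymphatic cells. Nrp2, a co-receptor for VEGF-C, was lower, at 328 CPM in capillary and 691 CPM in lymphatic cells. The basement membrane list had 8 of 18 higher and 1 lower. Sparc, a collagen-binding matricellular protein, was at 7001 CPM in capillary and 728 CPM in lymphatic cells, 9.62-fold higher (8.49 to 10.9). MHC class I presentation had 5 of 13 genes higher and none lower. MHC class II presentation had 0 of 6 higher and 5 lower with all cells. Without the called doublets, 4 capillary and 1 lymphatic, only 4 genes were measured, 1 of them higher and none lower. Without the cells carrying markers of other types, 6 of 6 were lower (median log2 ratio -2.59, against -1.71 with all cells), so the list's side depended on which cells were kept.

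The lower side against lymphatic cells held Pdpn, the lymphatic glycoprotein podoplanin, with 1 UMI in capillary cells and 97 UMIs in lymphatic cells. Fgl2, a fibrinogen-like protein, was at 11.3 CPM in capillary and 1991 CPM in lymphatic cells, 176-fold lower (94.9 to 368). Gucy1a1 and Gucy1b1, the subunits of the nitric oxide receptor guanylate cyclase, were 17-fold (7.17 to 49) and 44.8-fold (11.5 to 384) lower. Gap43 was 53.7-fold lower (22.3 to 169). Nr2f2, a transcription factor of veins and lymphatics, was at 102 CPM in capillary and 482 CPM in lymphatic cells. Where only 2 of the 6 lymphatic genes were required, 98 cells formed the lymphatic class and 22 of 40 named genes moved by more than 1.5-fold on the same side. Flt1 then had a log2 ratio of 1.07 against 4.24, Jam2 of 2.97 against 7.00 and Kitl of 3.46 against 6.76. Fabp4 was at 4.63 against 5.91, Ly6a at 3.58 against 5.75 and Sparc at 2.63 against 3.27.

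Cell cycle genes were higher in capillary cells against every class compared. Against endocardium 14 of 23 measured genes were higher and none lower (median log2 ratio 1.55). Against lymphatic cells 17 of 21 were higher and none lower (3.21). Ube2c, a ubiquitin-conjugating enzyme of mitosis, was at 97.5 CPM in capillary, 6.27 CPM in endocardial, 5.64 CPM in lymphatic cells and 16.1 CPM in the rest of the pool. Top2a, the topoisomerase of dividing cells, was at 70.3, 12.5, 2.82 and 14.3 CPM in these classes. These UMIs came from few cells: Ube2c from 13 and Top2a from 14 of the 178 capillary cells, and Mki67, the proliferation antigen, from 15.

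At an equal depth of 2500 UMIs per cell, 26 of 178 capillary cells (14.6%, 9.77 to 20.7) had UMIs of at least 4 of the 24 cell cycle genes. The share was 6.94% (3.38 to 12.4) in endocardial cells, 2.99% (0.364 to 10.4) in lymphatic cells and 4.48% (4.06 to 4.94) in the rest of the pool. With at least 8 of these genes it was 7.87% (14 cells, 4.37 to 12.8) in capillary, 2.08% in endocardial, 0 of 67 in lymphatic cells (up to 5.36%) and 1.41% in the rest. The interval of the capillary cells lay above that of the rest of the pool at both thresholds and overlapped those of the endocardial and lymphatic cells. With at least 2 genes the share was 39.3% in capillary cells and 20.6% in the rest. Free RNA can add UMIs to such a count, its part was not tested, and no phase was assigned.

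**Figure D4:**
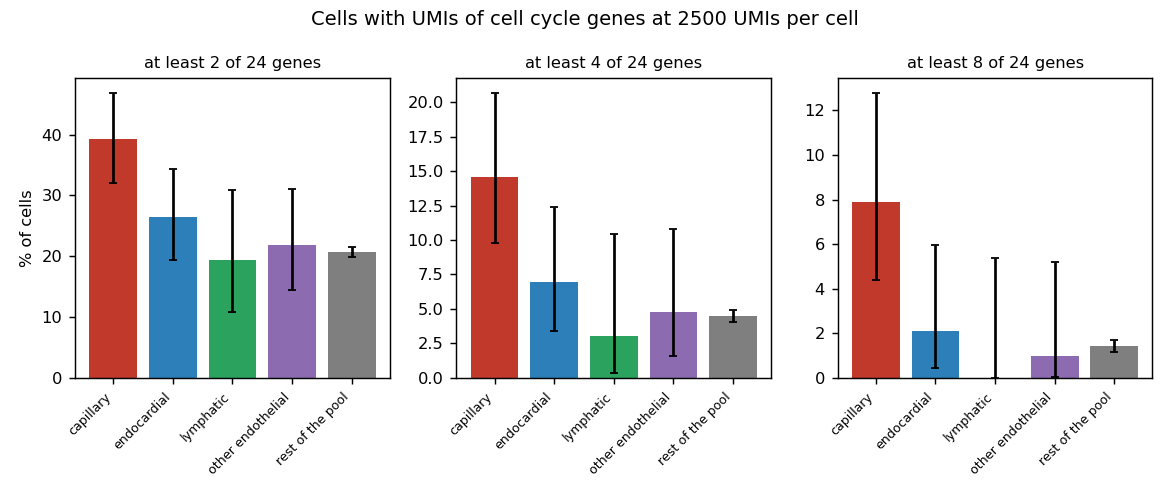
Share of cells (percent, bars from 0) with UMIs of at least 2, 4 or 8 of the 24 cell cycle genes at 2500 UMIs per cell, by class, with 95% binomial intervals. Capillary cells are at 39.3, 14.6 and 7.87%, and the rest of the pool at 20.6, 4.48 and 1.41%.

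Against the rest of the pool, which is mostly fibroblasts and immune cells by its markers, the capillary cells showed the general endothelial genes beside the capillary ones. Of 18529 genes with at least 20 UMIs, 5673 (30.6%) were at least 2-fold higher and 2548 (13.8%) lower. Many genes here have very few capillary UMIs. With an interval that excluded 1 the counts were 1805 (9.74%) and 1927 (10.4%), and these are used in the next sentences. The median log2 ratio over all these genes was 0.33, and 0.06 over the 14021 genes with at least 100 UMIs.

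Junction and barrier genes had 14 of 18 higher and none lower, and endothelial transcription factors 22 of 30 higher and 2 lower. C1qtnf9 had 190 UMIs in capillary cells and 3 UMIs in the rest, a ratio of 4724 (1592 to 23109). Car4 had 209 UMIs in capillary cells and 6 UMIs in the rest, Aqp7 139 and 4, and Fam110d 128 and 5. Depp1, Cyyr1, Adgrl4 and Myct1 were also among the 10 highest and were found at 374, 198, 170.1 and 250.2 CPM in the endothelial cells without Gpihbp1. Interferon response genes were higher in 14 of 22 and lower in none, with a median log2 ratio of 1.30. Rsad2, the antiviral protein viperin, was at 218 CPM in capillary cells and 20.9 CPM in the rest, 10.4-fold higher (8.93 to 12.1). Against endocardium 3 of 22 were higher and 3 lower, shares near those over all genes, and Rsad2 was 9.06-fold higher there (5.86 to 14.6). Without cells carrying markers of other types, 4 of 20 were higher and 1 lower.

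Lipid genes against the rest had 13 of 29 higher and 4 lower. Lpl was at 264 CPM in capillary cells and 537 CPM in the rest, a ratio of 0.492 (0.431 to 0.559). Against lymphatic cells, at 45.1 CPM, it was 5.86-fold higher in capillary cells (3.53 to 10.4), so Lpl was higher than in both other endothelia and lower than in the rest of the pool. MHC class II presentation was lower in 8 of 8 genes, with H2-Eb1 at 98.7 CPM in capillary cells and 2092 CPM in the rest. Chemokines were higher in 2 of 15 and lower in 7. Cxcl12 was at 1109 CPM in capillary cells and 102 CPM in the rest, and Ccl5, a T cell chemokine, at 13.6 CPM in capillary cells and 431 CPM in the rest. The lowest over the whole table were the fibroblast genes Gsn, Dcn, Clec3b, Col1a2 and Col1a1, with Dcn at 313 CPM in capillary cells and 13210 CPM in the rest. When all other 9191 barcodes served as the rest, 32 of 42 named genes moved by more than 1.5-fold on the same side, and Cldn5 had a log2 ratio of 5.30 against 10.29.

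**Figure D5:**
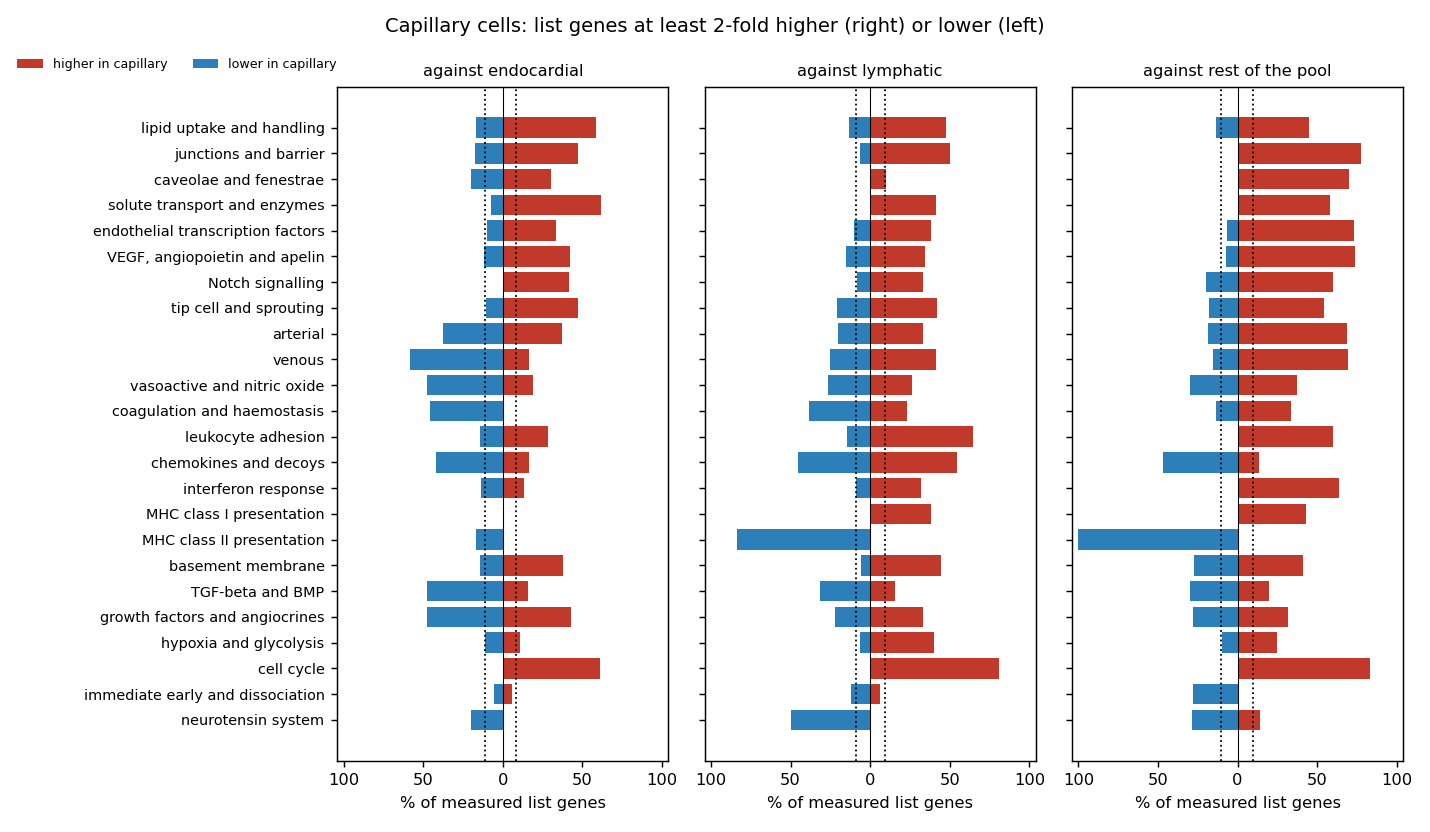
For 24 gene lists, the percent of measured genes at least 2-fold higher (red, right) or lower (blue, left) in capillary cells with an interval excluding 1, against endocardial cells, lymphatic cells and the rest of the pool; dotted lines give the percent over all genes, 8.57 and 11.2% against endocardial cells. The cell cycle list has no gene on the lower side in any panel, and MHC class II presentation lies wholly on the lower side against the rest of the pool; its lower bar against lymphatic cells is absent without the called doublets and is 6 of 6 genes without cells carrying markers of other types.

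The capillary cells also varied among themselves. After thinning, 748 genes had at least 100 UMIs over the 178 cells, and the median ratio of variance to mean over cells (Fano factor) was 1.26. The Fano factor rises with a gene's mean at equal relative spread, so it does not rank genes by how much cells differ. S100a9, a neutrophil protein, had the highest at 79.7, but 94 of its 112 thinned UMIs lay in 1 cell. Fabp4 had 24.3, with 15145 thinned UMIs in 178 cells. The heat shock and immediate early genes Hspa1a, Hspb1, Ier3 and Fos had 18.8, 16.4, 12 and 11.8; such genes are known to respond to tissue dissociation. Cxcl12 had 9.82 and Rbp7 8.19, with 553 and 423 thinned UMIs in 103 and 86 cells. Before thinning, Rbp7 was found in 101 cells, with a maximum of 41 UMIs and 50.9% of its UMIs in the top 18 cells. For Cd36, found in 161 cells before thinning, the top 18 cells held 25.7%. For Fabp4, found in 178 cells, the top 18 cells held 24.7%. These genes were picked after their spread was seen.

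At 2500 UMIs per cell, members were also scored for 5 lists of cell states by whether at least 2 of a list's genes had a UMI. The tip cell and sprouting list was positive in 96.6% of capillary cells (92.8 to 98.8), 68.1% of endocardial cells, 91% of lymphatic cells and 72.1% of the rest. The interferon list was positive in 87.6% of capillary cells (81.9 to 92.1), 75.7% of endocardial cells, 68.7% of lymphatic cells and 52.7% of the rest. The arterial list was positive in 80.9% of capillary cells (74.3 to 86.4), 93.1% of endocardial cells, 85.1% of lymphatic cells and 58.9% of the rest. The venous list separated the blood endothelia most, with 62.9% of capillary cells (55.4 to 70.03) against 97.9% of endocardial cells (94 to 99.6). Capillary cells had 62.9% here and the rest of the pool 62.8%, so the venous share of capillary cells was at the level of that rest. Of the rest of the pool, 52.7 to 72.1% was positive for the tip, arterial, venous and interferon lists. Shares for these lists thus name no cell type. Lists of other cell types were scored in the same way. The fibroblast list was positive in 48.3% of capillary, 88.2% of endocardial and 59.7% of lymphatic cells and 83.3% of the rest. The macrophage and monocyte list was positive in 21.3, 22.2, 17.9 and 45.2% of these classes. The mural, T and NK cell and cardiomyocyte lists were each positive in 1.12% of capillary cells.

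A small number of members carried genes that were high in the other endothelia. Plvap had 280 UMIs in 30 capillary cells, of which 10 had at least 10 UMIs. Some of these 10 members had no UMI of Cd36, Rbp7, Tcf15, Cxcl12 or Sparcl1. Their Plvap and Fabp4 UMIs were 16 and 11, 21 and 47, 24 and 28, and 31 and 55. The remaining members with at least 10 Plvap UMIs each had UMIs of some of these genes. Whether such members are endocardial cells with Npr3 undetected was not tested. Igfbp5 had 291 UMIs in 20 cells, and Vwf, von Willebrand factor of larger vessels, had 111 UMIs in 21 cells. Selp, the P-selectin of venules, had 40 UMIs in 12 cells. For Plvap, Igfbp5, Vwf and Selp the top 18 cells held 95, 99.3, 97.3 and 100.0% of the UMIs. The 23 members with 1 Gpihbp1 UMI had Plvap at 973 CPM and the 155 others at 208 CPM. Wt1, a transcription factor picked after its values were seen, was the converse, with 77 UMIs spread over 52 capillary cells. Its level was 87.3 CPM in capillary cells, 7.31 CPM in endocardial cells, 0 in lymphatic cells (no UMI in 67 cells) and 2.71 CPM in the rest. Wt1 also marks mesothelium. Of the other 5 mesothelial markers, Msln, Lrrn4 and Upk1b had no UMI in capillary cells, Krt19 had 10 UMIs in 6 cells and Upk3b had 1 UMI; their part in the Wt1 value was not tested.

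Nts, the neurotensin gene removed in the KO mice, had 325 UMIs in 35 of the 178 capillary cells, from 0 to 66 per cell. The 18 cells with most held 90.2% of them, and 7 cells had at least 10. Its level was 369 CPM in capillary cells (329.6 to 411 by counting) as an average over both genotypes, against 463 CPM in endocardial cells, 1373 CPM in lymphatic cells and 1.02 CPM in the rest of the pool. Capillary cells were thus 3.73-fold below lymphatic cells and within 2-fold of endocardial cells. Whether the Nts allele was removed equally in these classes is not given in the sources used here. CreERT2, a tamoxifen-inducible recombinase transgene, had UMIs in 11 of 67 lymphatic, 5 of 144 endocardial and none of the 178 capillary cells. The part of Nts removal in the class differences was not tested. At equal depth 17.4% of capillary cells and 0.251% of the rest had an Nts UMI. The receptor gene Ntsr1 had no UMI in any class and Ntsr2 none in capillary cells. Sort1, the sortilin receptor, had 7 UMIs in capillary cells, a level of 7.94 CPM. No genotype was read from Nts.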

How the data were processed

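Sorted live cells of the hearts of 7 mice were pooled and run on 1 lane of 10x Genomics Chromium 3′ chemistry (v3.1), per the labels' protocols. The authors deposited raw UMI counts per gene and barcode, 56953 genes and a CreERT2 feature in 9369 barcodes; per the submitters' processing notes, the tools were STARsolo and Scanpy and the genome mm10, with no version or role given. How barcodes were called and whether strand was used are not given in the sources used here. The library of hashtag tags that could tie cells to mice was not analysed here.

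Counts were used as deposited, in Python 3.11.15 with scanpy 1.11.5, numpy 2.4.6, scipy 1.17.1 and pandas 2.3.3. The rule was applied to raw UMIs. UMIs were summed per class and scaled to CPM of 881710 UMIs in capillary, 957117 in endocardial, 354586 in lymphatic cells and 65760134 in the rest of the pool. Ratios were taken for genes with at least 20 UMIs over both classes, and a gene was called at 2-fold. A class at 0 was set to 3 counts for a lower bound. Shares used cells thinned to 2500 UMIs. Scrublet, run within scanpy, called 357 barcodes doublets (3.81%); they were kept, and left out as an alternative. There was no test between groups, and barcodes meeting no class (126) entered no comparison. The steps were tested on simulated data. Alternatives changed the rule's thresholds, the UMI minimum, the scaling, the weighting of cells and the cells left out.

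The members, the 24 functional lists (423 genes) and 15 marker lists (121 genes) were chosen with earlier results of these data known. Named genes were all capillary markers, up to 2 called genes per side and list with the ratio bound farthest from 1 (up to 30 per comparison), the 10 highest and 5 lowest of the whole table with at least 50 UMIs, the 2 list genes with most UMIs in capillary cells, and Nts, its receptor genes Ntsr1 and Ntsr2, and Sort1. Other genes, such as Wt1, Abcb1a, Pparg, Hey1, Selp and those ranked by Fano factor, were chosen after their values were seen. Promoter windows came from RefSeq; 17 of the 24 genes highest in capillary cells had one. A further gene that this choice of named genes would include is not reported here.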

Additional observations from a re-analysis of the deposited data

How the results depend on the processing

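No paired analysis was possible because the series holds 1 gene expression library, without replicates to number. With a minimum of 100 UMIs a gene, 254 genes were higher and 341 lower against endocardial cells, 235 and 153 against lymphatic cells, and 1847 were higher against the rest. With a minimum of 1 UMI these counts were 1571 and 1999, 1622 and 1508, and 11363. An interval that excluded 1 left 1805 genes higher against the rest. The other alternatives, which are other definitions of the classes, doublets left out, equal weights, another scaling, an interval excluding 1 and the removal of cells with markers of other types, gave 736 to 913 higher and 820 to 1119 lower against endocardial cells, 692 to 925 and 661 to 814 against lymphatic cells, and, leaving aside the interval, 5441 to 5992 higher against the rest; lower counts against the rest were 1927 to 2759 over all alternatives. In these, apart from the interval, no called named gene changed side or came within 2-fold. With 3 genes of a list required, capillary cells were positive in 56.2% for the arterial, 40.4% for the venous, 88.8% for the tip cell, 20.8% for the cell cycle and 75.8% for the interferon list. Thinned to 1500 UMIs, the shares were 70.2, 46.1, 91, 24.2 and 76.4%. The cause was not tested, beyond the fact that stricter minimums and shallower cells give fewer positives. The interval call and the removal of cells with markers of other types were chosen after seeing the data. Rgs5, without an endocardial UMI in either, had a lower bound on its log2 ratio to endocardial cells of 2.61 with those cells removed, against 4.89 with all cells. The 67 lymphatic cells limit genes with few UMIs on that side.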

Other observations

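The feature CreERT2, a tamoxifen-inducible recombinase transgene, had no UMI in the 178 capillary cells, which allows up to 4.18 CPM (95% Poisson bound). It had 20 UMIs in 11 of 67 lymphatic cells (56.4 CPM, 34.5 to 87.1), 7 UMIs in 5 of 144 endocardial cells (7.31 CPM) and 29 UMIs in 29 of 8749 cells of the rest (0.441 CPM). Which mice carried it is not given in the sources used here.

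Immune genes not described above were as follows. H2-D1, an MHC class I heavy chain with near-identical paralogs and thus an uncertain level, was at 3304 CPM in capillary cells, 3412 CPM in endocardial cells and 2507 CPM in lymphatic cells. B2m, its light chain, was at 3188 CPM in capillary cells, 2121 CPM in endocardial cells and 1734 CPM in lymphatic cells. Cxcl9, an interferon-induced chemokine, was at 139.5 CPM in capillary cells and 55.4 CPM in endocardial cells and had no UMI in lymphatic cells. Iigp1, an interferon-induced GTPase, was at 417 CPM in capillary cells, 339 CPM in endocardial cells and 107 CPM in lymphatic cells.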
